A study of Homo sapiens with 12 samples.

Results

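The genes described here encode the signalling complexes that assemble under the receptor for tumour necrosis factor, and the proteins that carry out necroptosis. The set holds 10 genes: the receptor TNFRSF1A, its adaptor TRADD, the ubiquitin ligase BIRC2, the deubiquitinase CYLD, the kinases RIPK1 and RIPK3, the adaptor FADD, the protease CASP8, its regulator CFLAR and the membrane-disrupting effector MLKL. They were taken by name, with earlier results of these data known, so comparisons with all genes describe the set and do not test it. Each was read from probe sets whose platform annotation gives that gene and no other. Where a gene had several such probe sets, the brightest of them, by its mean over the 12 arrays, was used. Of the 10 genes, 9 had a probe set among the 19775 genes read in this way, and 8 passed a filter on dim values and were tested, among 10561 genes tested. RIPK1 had no probe set with a single gene symbol and was not analysed here. RIPK3 was measured but stayed too dim to test.

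Both lines studied, RS4:11 and SEM-K2, are established human acute lymphoblastic leukaemia lines with the MLL-AF4 fusion. Each was kept for 6 h in vehicle, in obatoclax at its 72 h EC50 (the concentration reaching the midpoint of its effect when cells are exposed for 72 h), or in obatoclax at 3 times that concentration, written 3xEC50. Obatoclax is a small molecule made to block the antiapoptotic proteins of the BCL2 family. Total RNA of each of the 6 groups was hybridised to 2 Affymetrix U133 Plus 2 arrays, labelled as biologic replicates, with no statement that they came from separate passages, so p-values reflect no more than the variation among these particular samples. Molar concentrations are not given in the labels, nor is it stated that both lines had the same EC50. Every group carries the fusion, and each line stands only for itself. The arrays measured RNA of whole cultures, in which fewer cells of a kind and less RNA per cell cannot be told apart.

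When tumour necrosis factor binds TNFRSF1A, TRADD and RIPK1 are recruited and BIRC2 attaches ubiquitin chains that hold the complex together and switch on NF-kappaB. CYLD removes such chains, after which RIPK1 can join FADD and CASP8 in a second complex that triggers apoptosis, with CFLAR as the brake on CASP8. Where CASP8 is inactive, RIPK1 engages RIPK3, which phosphorylates MLKL, and MLKL breaks the plasma membrane. Necroptosis has been studied as a route by which leukaemia cells that resist apoptosis can still be killed.

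The 12 arrays were alike in overall signal, with medians from 3.13 to 3.16 on the log2 scale and 41.7% to 42.8% of probe sets above 4. SEM-K2 3xEC50 replicate 2 stood apart in RNA integrity. Its signal from the 3' end exceeded that from the 5' end by 1.97 for ACTB and 0.61 for GAPDH on the log2 scale, against 0.87 to 1.23 and 0.08 to 0.30 on the other 11 arrays. Most markers fitted the labelled cell type. Of the B cell precursor markers 6 of 8 were above 4 on all 12 arrays, with DNTT above it on 7 and RAG1 on 6. The 3 measured markers of KMT2A-rearranged leukaemia were above it on all 12. Of the myeloid, T and NK, erythroid, and fibroblast and epithelial markers, 3 of 4, 4 of 5, 2 of 3 and 3 of 4 were above 4 on none. The exceptions, in that order CSF1R, NKG7, ITGA2B and COL1A1, were above 4 on all 12. The mean log2 level of the 8 precursor markers ran from 10.6 to 11.4 on RS4:11 arrays and from 8.44 to 9.07 on SEM-K2 arrays. It includes DNTT and RAG1 values under 4. The mean of the 3 KMT2A-rearranged markers went the other way, 11.43 to 11.7 on RS4:11 arrays and 12.5 to 12.72 on SEM-K2 arrays. Both means move with every line difference given here, and their part in them was not tested.

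The plot of levels by array shows the 9 measured genes. Values are deposited log2 values, and a value under 4 was read as not above the floor of detection, so that such values have no order. Probe sets differ in how brightly they report, and levels are therefore compared within a gene and never between genes.

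**Figure D1:**
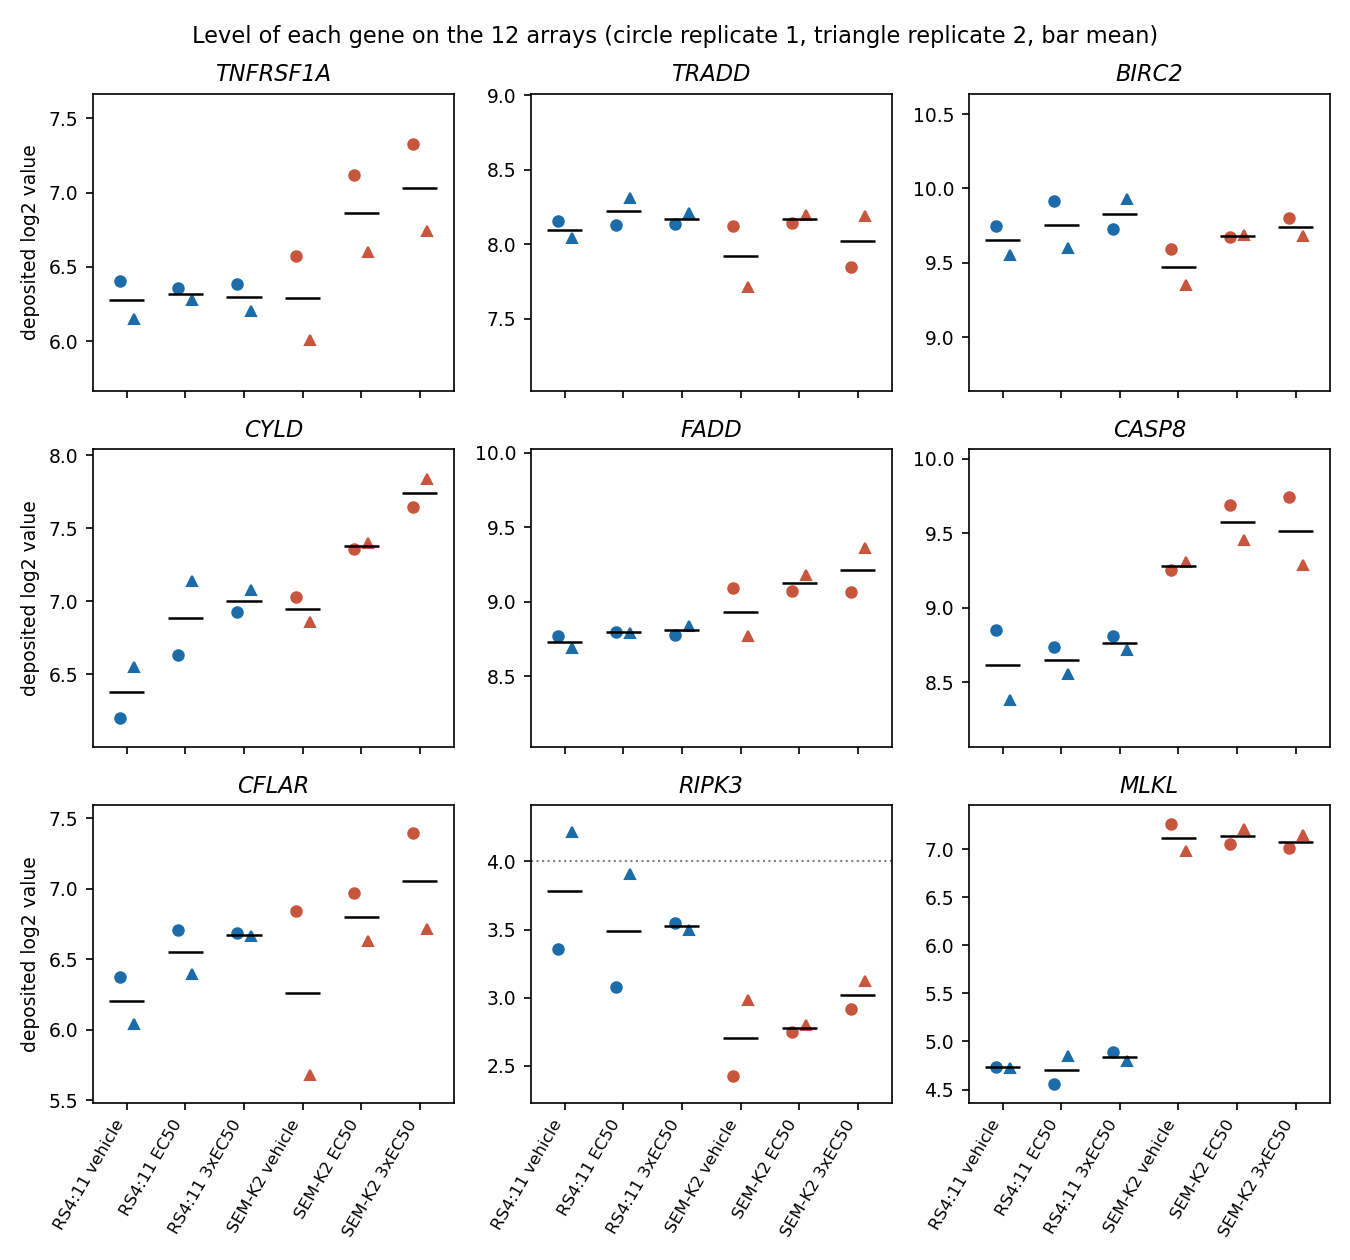
Deposited log2 value (vertical axes, each spanning at least 2 log2 units and not starting at 0) of 9 genes in the 6 groups of RS4:11 (blue) and SEM-K2 (red) arrays; circles are replicate 1, triangles replicate 2, bars the mean of the 2 arrays, and the dotted line the floor of 4. MLKL lies between 6.98 and 7.26 on the SEM-K2 arrays and between 4.56 and 4.89 on the RS4:11 arrays, and CYLD is higher on every treated array than on both vehicle arrays of its line.

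MLKL, the effector of necroptosis, separated the lines. In RS4:11 it read 4.73 and 4.72 with vehicle, 4.56 and 4.85 at EC50, and 4.89 and 4.79 at 3xEC50. In SEM-K2 it read 7.26 and 6.98 with vehicle, 7.06 and 7.21 at EC50, and 7.01 and 7.15 at 3xEC50. All 6 SEM-K2 arrays therefore lay above all 6 RS4:11 arrays, and within a line the treated and vehicle arrays overlapped, except in RS4:11 at 3xEC50. Without drug MLKL was higher in SEM-K2 by 2.39 ± 0.16 (SE, n = 2 arrays a group) on the log2 scale, a 5.24-fold difference (limma, Benjamini-Hochberg adjusted p = 5.01e-06). Of the 8 tested genes 12.5% were called at an adjusted p under 0.05 in this comparison, against 19.6% of all genes tested. With the replicate number as a block these shares were 37.5% and 26.8%. Their order depends on the fit, and with 8 genes they are no result about the set. In the fit without a block MLKL was the only gene of the set called. The call held in each of 21 alternative analyses, with differences from 2.25 to 2.53 and adjusted p from 1.88e-06 to 0.00203. Those that left out a treated array could not move the difference, only its error. MLKL was read from 1 probe set, which every alternative used, so none of them checks the difference with other probes. RS4:11 values sit close above the floor of 4, where GCRMA values are compressed.

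MLKL (Entrez 197259) spans chr16:74671855-74700862 on the GRCh38.p14 assembly. The 250 bases before its RefSeq start, chr16:74700863-74701112 on the minus strand, are shown because MLKL is the gene with the called line difference. A search of both strands found none of 5 motifs in its window of 250 bases before to 50 after the start: the NF-kappaB consensus, the cyclic AMP response element TGACGTCA, the AP-1 site TGANTCA, the interferon-stimulated element core (GAAA, any 2 bases, GAAA) and the CLEAR element core TCACGTGA. These were found in 11.3%, 1.85%, 7.71%, 3.57% and 0.98% of 35116 RefSeq windows of the same length. The absence says only that these letters are not in this window.
MLKL: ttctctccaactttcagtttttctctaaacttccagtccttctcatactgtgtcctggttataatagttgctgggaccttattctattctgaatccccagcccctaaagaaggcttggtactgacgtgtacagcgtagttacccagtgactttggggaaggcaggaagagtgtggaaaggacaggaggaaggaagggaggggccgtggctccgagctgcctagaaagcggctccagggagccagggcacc

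RIPK3, the kinase that phosphorylates MLKL, was above the floor on 1 of 12 arrays. RS4:11 vehicle replicate 2 read 4.21, the other RS4:11 arrays ran from 3.08 to 3.91, and the SEM-K2 arrays from 2.43 to 3.12. No fold was computed between groups under the floor. Its single probe set cannot show whether RIPK3 RNA was present at a low level, and the line with the higher MLKL signal had no array with RIPK3 above the floor.

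CASP8, the protease that starts death receptor apoptosis and cleaves RIPK1 and RIPK3, read 8.85 and 8.38 in RS4:11 vehicle arrays and 9.25 and 9.31 in SEM-K2 vehicle arrays. The pairs did not overlap, and over all treatments the SEM-K2 arrays (9.25 to 9.75) lay above the RS4:11 arrays (8.38 to 8.85). The baseline difference of 0.67 ± 0.21 missed the threshold (adjusted p = 0.0522, limma with Benjamini-Hochberg). It passed with the replicate number as a block (adjusted p = 0.0126), and without RS4:11 vehicle replicate 1 it was 0.90 (adjusted p = 0.0325), but without RS4:11 vehicle replicate 2 it was 0.43 (adjusted p = 0.315). Leaving out either SEM-K2 3xEC50 array kept the CASP8 difference at 0.67. Those arrays do not enter the vehicle means, so these runs are no check on its size. Its other expressed probe set gave 0.61. With the block, 3 of 8 genes were called at baseline, against 26.8% of all genes. A block within each line called 3 of 8 against 23.6%. That fit gives line differences at replicate 1 and not those of the vehicle means. For TNFRSF1A it gave 0.20 beside 0.01, so its baseline count is no check on the other.

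CYLD was the other gene of those 3. It read 6.20 and 6.55 in RS4:11 vehicle arrays and 7.03 and 6.86 in SEM-K2 vehicle arrays, without overlap. The difference of 0.57 ± 0.20 was not called (adjusted p = 0.0812) and was called with the replicate block (adjusted p = 0.0357). For CYLD the block within each line gave 0.73 (adjusted p = 0.0154), a line difference at replicate 1 and not that of the vehicle means. Of its 4 expressed probe sets 3 were higher in SEM-K2 and 1 differed by -0.24, and with all its probe sets averaged the difference was 0.25 (adjusted p = 0.174). Without RS4:11 vehicle replicate 1 it was 0.39 (adjusted p = 0.344).

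The remaining genes gave no baseline call under any alternative. FADD, the adaptor that brings CASP8 to the receptor complex, was 0.20 ± 0.16 higher in SEM-K2 with no overlap between its vehicle arrays (8.77 and 8.69 against 9.09 and 8.77) although the closest arrays, 1 from each line, were nearly equal. CFLAR differed by 0.06 ± 0.36 and TNFRSF1A by 0.01 ± 0.26. TRADD differed by -0.18 ± 0.18 and BIRC2 by -0.18 ± 0.17, their vehicle arrays overlapping between the lines. The 95% intervals of these 5 differences lie between -0.75 and 0.87, the widest being that of CFLAR.

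In the fit without a replicate block, obatoclax called none of the 8 genes at either dose in either line. In SEM-K2 at 3xEC50 the count was 0 of 8, against 0.824% of all genes called by limma, and 2 of the 8 had an unadjusted p under 0.05. At EC50 in SEM-K2 it was 0 of 8 against 0.17%, with 0 at an unadjusted p under 0.05. In RS4:11 it was 0 of 8 at both doses, where 0% of all genes were called at 3xEC50 and 0% at EC50, and 1 of 8 had an unadjusted p under 0.05 at each dose. Averaged over lines and doses, 0 of 8 were called against 0.833%, with 2 at an unadjusted p under 0.05. These counts depend on the block. With a replicate block within each line, CYLD and TNFRSF1A were called at 3xEC50 in SEM-K2, against 2.83% of all genes. In the average that block called CYLD, TNFRSF1A and CFLAR, against 5.4%. A block common to both lines called only CYLD, in the average, against 4.1%.

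Log2 differences from vehicle were mostly small and above 0. At 3xEC50 in SEM-K2 the median of the 8 genes was 0.28, and 7 were above 0, beside a median of 0.06 and 58.6% above 0 over all genes tested. At EC50 in SEM-K2 the median was 0.27 beside 0.05. In RS4:11 the medians were 0.13 beside 0.02 at 3xEC50 and 0.09 beside 0.02 at EC50. Both doses of a line share its vehicle arrays, so the comparisons within a line are not independent of each other. The share of genes with non-overlapping arrays stood above the background in each drug group, but rests on few genes. Because the genes were chosen with earlier results of these data known, neither these shares nor the medians test the set. Both treated arrays exceeded both vehicle arrays for 3 of 8 genes at 3xEC50 in SEM-K2 (22.6% of all genes) and 5 of 8 at EC50 in SEM-K2 (21.8%). In RS4:11 it was 4 of 8 at 3xEC50 (18.4%) and 3 of 8 at EC50 (17.5%).

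**Figure D2:**
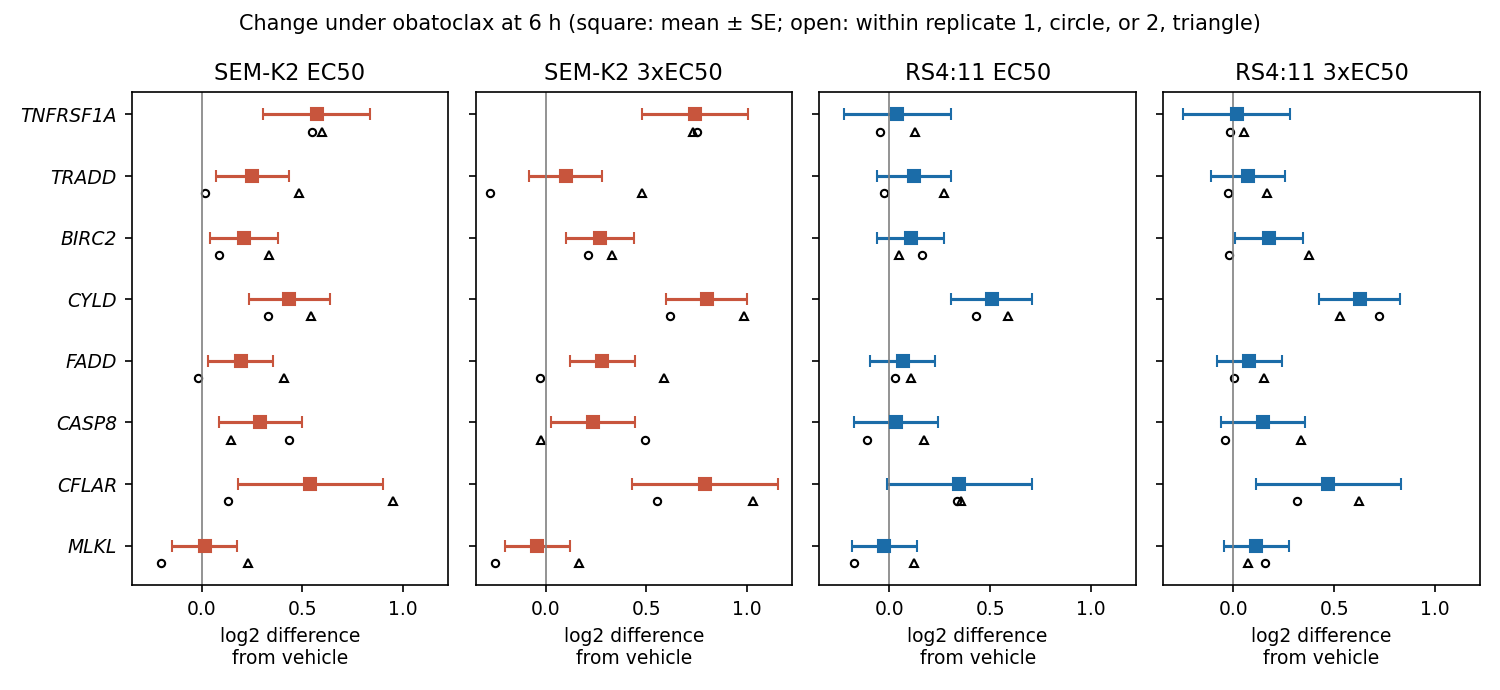
Log2 difference from the vehicle of the same line (horizontal axes) for 8 genes in the 4 drug groups; squares are the difference of means with its SE from the limma fit, open circles and triangles the difference within replicate 1 and replicate 2. CYLD lies above 0 in all 4 groups (0.44 to 0.80), TNFRSF1A at 0.57 and 0.74 in SEM-K2 and at 0.04 and 0.02 in RS4:11, and MLKL between -0.04 and 0.11.

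CYLD had the largest averaged difference of the 8. In RS4:11 it read 6.63 and 7.14 at EC50 and 6.92 and 7.08 at 3xEC50, against 6.20 and 6.55 with vehicle. In SEM-K2 it read 7.36 and 7.40 at EC50 and 7.64 and 7.84 at 3xEC50, against 7.03 and 6.86 with vehicle. All 4 treated arrays lay above both vehicle arrays in both lines, which held for 1 of 8 genes and for 3.61% of all genes tested. Within a replicate number the differences ran from 0.43 to 0.72 in RS4:11 and from 0.33 to 0.98 in SEM-K2.

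By group, CYLD differed from vehicle by 0.51 ± 0.20 at EC50 and 0.63 ± 0.20 at 3xEC50 in RS4:11, and by 0.44 ± 0.20 and 0.80 ± 0.20 in SEM-K2. None was called; the smallest adjusted p was 0.161, at 3xEC50 in SEM-K2. The average over lines and doses was 0.59 ± 0.12 (1.51-fold), with an unadjusted p of 8.51e-04 and an adjusted p of 0.0725 (limma, Benjamini-Hochberg). With the replicate number as a block the average was called (adjusted p = 0.0195), as 1 of 8 genes against 4.1% of all genes. Without RS4:11 EC50 replicate 1 it was 0.66 and called (adjusted p = 0.0446); the other 11 arrays left out in turn gave no call, with values from 0.50 to 0.68. With a block within each line the 3xEC50 difference in SEM-K2 was called too (adjusted p = 0.0315), and without SEM-K2 3xEC50 replicate 2, the array with the 3' excess, it was 0.70 (adjusted p = 0.512). The response did not differ between the lines beyond its error: the difference was 0.17 ± 0.28 at 3xEC50 (95% interval -0.46 to 0.81) and -0.07 ± 0.28 at EC50 (-0.71 to 0.56).

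CYLD lies at chr16:50742086-50801935 on GRCh38.p14 (Entrez 1540) and CFLAR at chr2:201116164-201176687 (Entrez 8837). Stretches of 250 bases before a RefSeq start of each are shown because these are the only members whose windows hold the NF-kappaB consensus, a factor that the receptor complex controls. Both genes read higher with drug on their representative probe sets. TNFRSF1A and BIRC2 also read higher with drug in SEM-K2, and their windows hold no such match. Any part of NF-kappaB in these changes was not tested. Capitals mark the match to the NF-kappaB consensus. The first stretch, chr16:50741836-50742085 on the plus strand, holds it on the opposite strand, with its first printed base at -189 from the start. The second, chr2:201118466-201118715 on the plus strand, holds it at -97.
CYLD: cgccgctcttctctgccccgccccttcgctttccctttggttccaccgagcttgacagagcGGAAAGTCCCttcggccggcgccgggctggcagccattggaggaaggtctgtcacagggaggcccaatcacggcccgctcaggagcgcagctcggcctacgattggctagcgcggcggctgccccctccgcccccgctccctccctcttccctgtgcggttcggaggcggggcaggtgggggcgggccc
CFLAR: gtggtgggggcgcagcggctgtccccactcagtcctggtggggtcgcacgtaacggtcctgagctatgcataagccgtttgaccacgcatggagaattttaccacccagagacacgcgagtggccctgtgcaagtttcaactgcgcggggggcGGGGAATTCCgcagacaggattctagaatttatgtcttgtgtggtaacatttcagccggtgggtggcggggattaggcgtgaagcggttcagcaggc

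RefSeq gives 3 windows for CYLD, of which 2 hold the consensus, and 4 for CFLAR, of which 1 does; 11.3% of all windows do. Of the other members, BIRC2 has the cyclic AMP response element in both of its 2 windows, which overlap and share 1 site, and CYLD has it in 1. FADD has an AP-1 match in its 1 window, CASP8 in 2 of 3 and CFLAR in 1 of 4. The interferon-stimulated core lies in 1 of 3 windows of CASP8 and in 2 of 3 of RIPK1, which overlap and share 1 site. TNFRSF1A has 1 window with none of the 5 motifs. TRADD and RIPK3 are not in the table. These are matches of letters, with no measurement of binding behind them.

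CYLD was covered by 7 probe sets, of which 4 passed the filter, and they differed in size of change. In SEM-K2 all 4 were above 0 at both doses: at 3xEC50 they read 0.80, 0.77, 0.26 and 0.43 above vehicle, from the brightest to the dimmest. In RS4:11 3 of 4 were above 0 at each dose, the exceptions being -0.16 for the second brightest at 3xEC50 and -0.19 for the third brightest at EC50. When the mean of all 7 probe sets stood for the gene, the averaged difference was 0.18 (adjusted p = 0.264) and that at 3xEC50 in SEM-K2 was 0.29 (adjusted p = 0.367); 3 of the 7 were under the floor on all arrays.

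**Figure D3:**
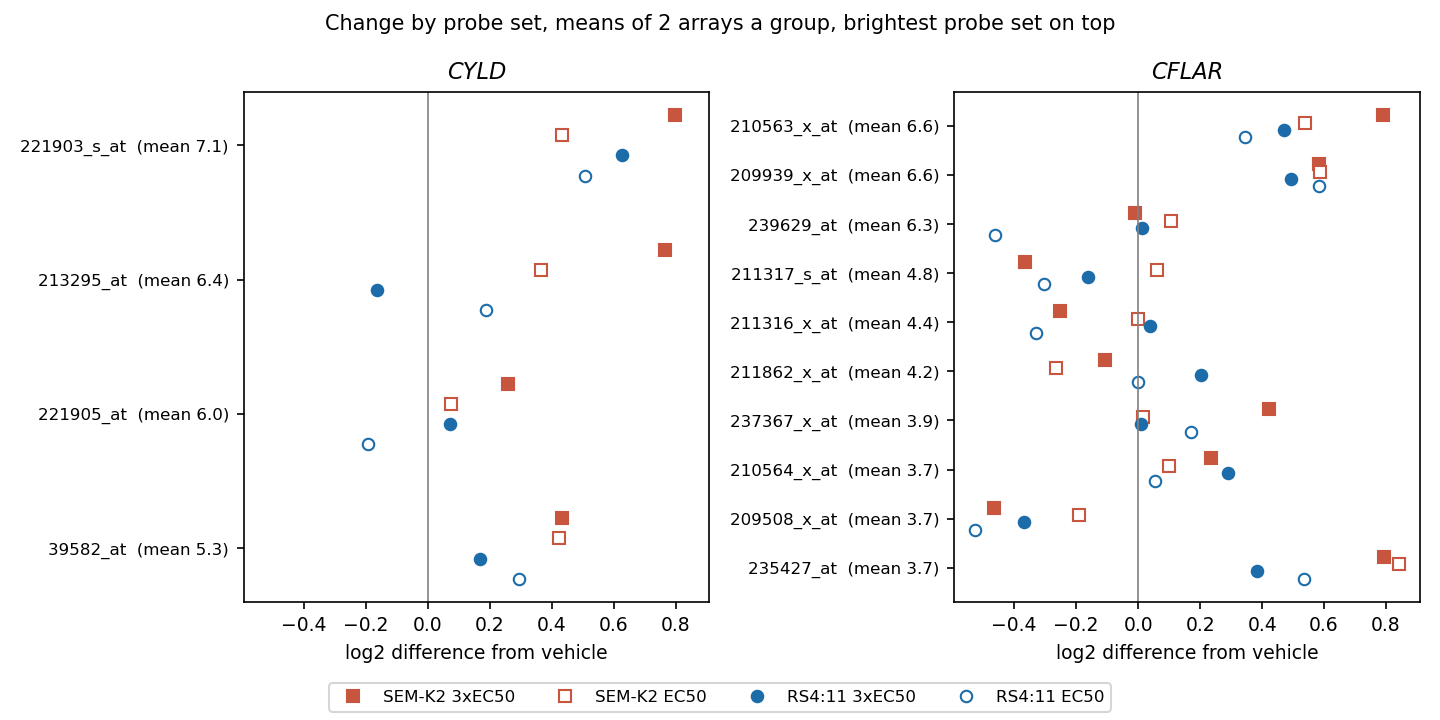
Log2 difference from vehicle (horizontal axes; means of 2 arrays a group) for the 4 CYLD and 10 CFLAR probe sets above 4 on at least 2 arrays, with each probe set's mean over 12 arrays in brackets; squares are SEM-K2, circles RS4:11, filled symbols 3xEC50 and open symbols EC50. The CYLD probe sets lie above 0 in SEM-K2, from 0.08 to 0.80, whereas the CFLAR probe sets lie on both sides of 0, from -0.53 to 0.84.

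TNFRSF1A, the receptor itself, read higher with drug in SEM-K2. There it read 6.57 and 6.01 with vehicle, 7.12 and 6.60 at EC50, and 7.32 and 6.74 at 3xEC50. In RS4:11 it read 6.41 and 6.15 with vehicle, 6.36 and 6.28 at EC50, and 6.39 and 6.20 at 3xEC50. The SEM-K2 treated arrays all lay above both vehicle arrays, and the RS4:11 groups overlapped. Replicate 1 was above replicate 2 in each of the 6 groups, and within a replicate number the SEM-K2 differences were close, from 0.55 to 0.75, while those in RS4:11 ran from -0.05 to 0.13.

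At 3xEC50 in SEM-K2 the TNFRSF1A difference was 0.74 ± 0.26 (1.67-fold) and not called (unadjusted p = 0.0202, adjusted p = 0.320). At EC50 it was 0.57 ± 0.26 (adjusted p = 0.941). The 3xEC50 difference was called with a block within each line (adjusted p = 0.0201), as 1 of 2 genes called among the 8, against 2.83% of all genes, and not with a block common to both lines (adjusted p = 0.0586). With 2 arrays a group it moved when 1 was left out of the fit without a block. It was 0.45 without SEM-K2 3xEC50 replicate 1 and 0.46 without vehicle replicate 2. It was 1.02 without vehicle replicate 1, and 1.03 without 3xEC50 replicate 2, which shows the 3' excess. These omissions break the replicate pairs, and within replicates 1 and 2 the difference was 0.75 and 0.73. The RS4:11 differences were 0.04 ± 0.26 and 0.02 ± 0.26. The lines' responses differed by 0.72 ± 0.37 at 3xEC50 (unadjusted p = 0.0841) and by 0.53 ± 0.37 at EC50 (unadjusted p = 0.188). Neither was called. With the block within each line the unadjusted p was 0.00263 at 3xEC50 and 0.0134 at EC50. Neither was called there (adjusted p = 0.257 and 0.813), so a difference between the lines was not established.

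CFLAR, the catalytically inactive relative of CASP8 that limits its activation, read 6.37 and 6.04 with vehicle, 6.71 and 6.39 at EC50, and 6.69 and 6.66 at 3xEC50 in RS4:11. In SEM-K2 it read 6.84 and 5.68, 6.97 and 6.63, and 7.39 and 6.71. All treated RS4:11 arrays lay above both vehicle arrays. In SEM-K2 the vehicle pair was 1.16 apart and overlapped the treated arrays. Differences were 0.35 ± 0.36 and 0.47 ± 0.36 in RS4:11 and 0.54 ± 0.36 and 0.79 ± 0.36 in SEM-K2, at EC50 and 3xEC50, and none was called (smallest adjusted p = 0.444). The 3xEC50 difference in SEM-K2 was 0.21 without vehicle replicate 2 and 1.37 without vehicle replicate 1.

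The direction for CFLAR depends on the probe set. Its representative has an identifier ending in _x_at, the mark of probe sets whose probes can match other transcripts. Without such probe sets the third brightest represented the gene, with -0.01 at 3xEC50 in SEM-K2 and -0.09 averaged over lines and doses, against 0.54 ± 0.22 averaged on the representative (adjusted p = 0.305). Of the 10 expressed probe sets, 5 were above 0 at 3xEC50 and 8 at EC50 in SEM-K2, and 8 and 6 in RS4:11. The averaged difference of the representative was called with a block within each line (adjusted p = 0.0446). Under that block 3 of 8 genes were called for the average, the others being CYLD (adjusted p = 0.0129) and TNFRSF1A (0.34, adjusted p = 0.0384), against 5.4% of all genes.

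BIRC2, the ubiquitin ligase of the first complex, read 9.59 and 9.35 in SEM-K2 vehicle arrays and 9.67 to 9.80 on the 4 treated ones. All 4 treated arrays exceeded both vehicle arrays in SEM-K2 for BIRC2, CYLD and TNFRSF1A, 3 of 8 genes against 12.4% of all genes. In RS4:11 this held for CFLAR, CYLD and FADD, 3 of 8 against 10.8%. The BIRC2 differences were 0.21 and 0.27 in SEM-K2 and 0.10 and 0.18 in RS4:11 at EC50 and 3xEC50, each with an SE of 0.17.

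FADD differed from vehicle by 0.20 and 0.28 in SEM-K2 and by 0.07 and 0.08 in RS4:11, with an SE of 0.16. Its RS4:11 arrays spanned only 8.69 to 8.84. TRADD differed by 0.25 and 0.10 in SEM-K2 and by 0.12 and 0.07 in RS4:11, with an SE of 0.18, and its SEM-K2 replicates went opposite ways at 3xEC50 (-0.28 and 0.48). CASP8 read 8.74 and 8.55 at EC50 and 8.81 and 8.72 at 3xEC50 in RS4:11, between its vehicle arrays, and 9.69 and 9.46, then 9.75 and 9.29, in SEM-K2. It differed from vehicle by 0.29 and 0.23 in SEM-K2 and by 0.03 and 0.15 in RS4:11, with an SE of 0.21. For MLKL the values were 0.02 and -0.04 in SEM-K2 and -0.03 and 0.11 in RS4:11, with an SE of 0.16. The 95% interval for MLKL at 3xEC50 in SEM-K2 ran from -0.40 to 0.32, well short of the 2.39 that separated the lines.

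No step between the doses and no difference between the lines in response was called for any of the 8. In the fit without a block the counts for 3xEC50 against EC50 were 0 of 8 in each line, with 0 of 8 at an unadjusted p under 0.05. Of all genes 0% were called in SEM-K2 and 0% in RS4:11. The largest step was 0.36 ± 0.20 for CYLD in SEM-K2. For the difference in response the counts were 0 of 8 at 3xEC50 (0.0379% of all genes called) and 0 of 8 at EC50 (0.00947%), again with 0 at an unadjusted p under 0.05.

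The wider pathway was read from a list of 51 other genes, of which 46 had a probe set and 38 were tested. Among ligands, TNF, LTA and FASLG were above 4 on 0 of 12 arrays, and TNFSF10 was the 1 of 4 tested. TNFRSF10A, TNFRSF25, RNF31, ZBP1 and TLR3 were also under the floor on every array, and of these ZBP1 and TLR3 act upstream of RIPK3 in other necroptosis routes. Without drug 7 of the 38 (18.4%) were called, 6 higher and 1 lower in SEM-K2, a share near the 19.6% of all genes, so the count is no result about the list and the genes below are described one by one.

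**Figure D4:**
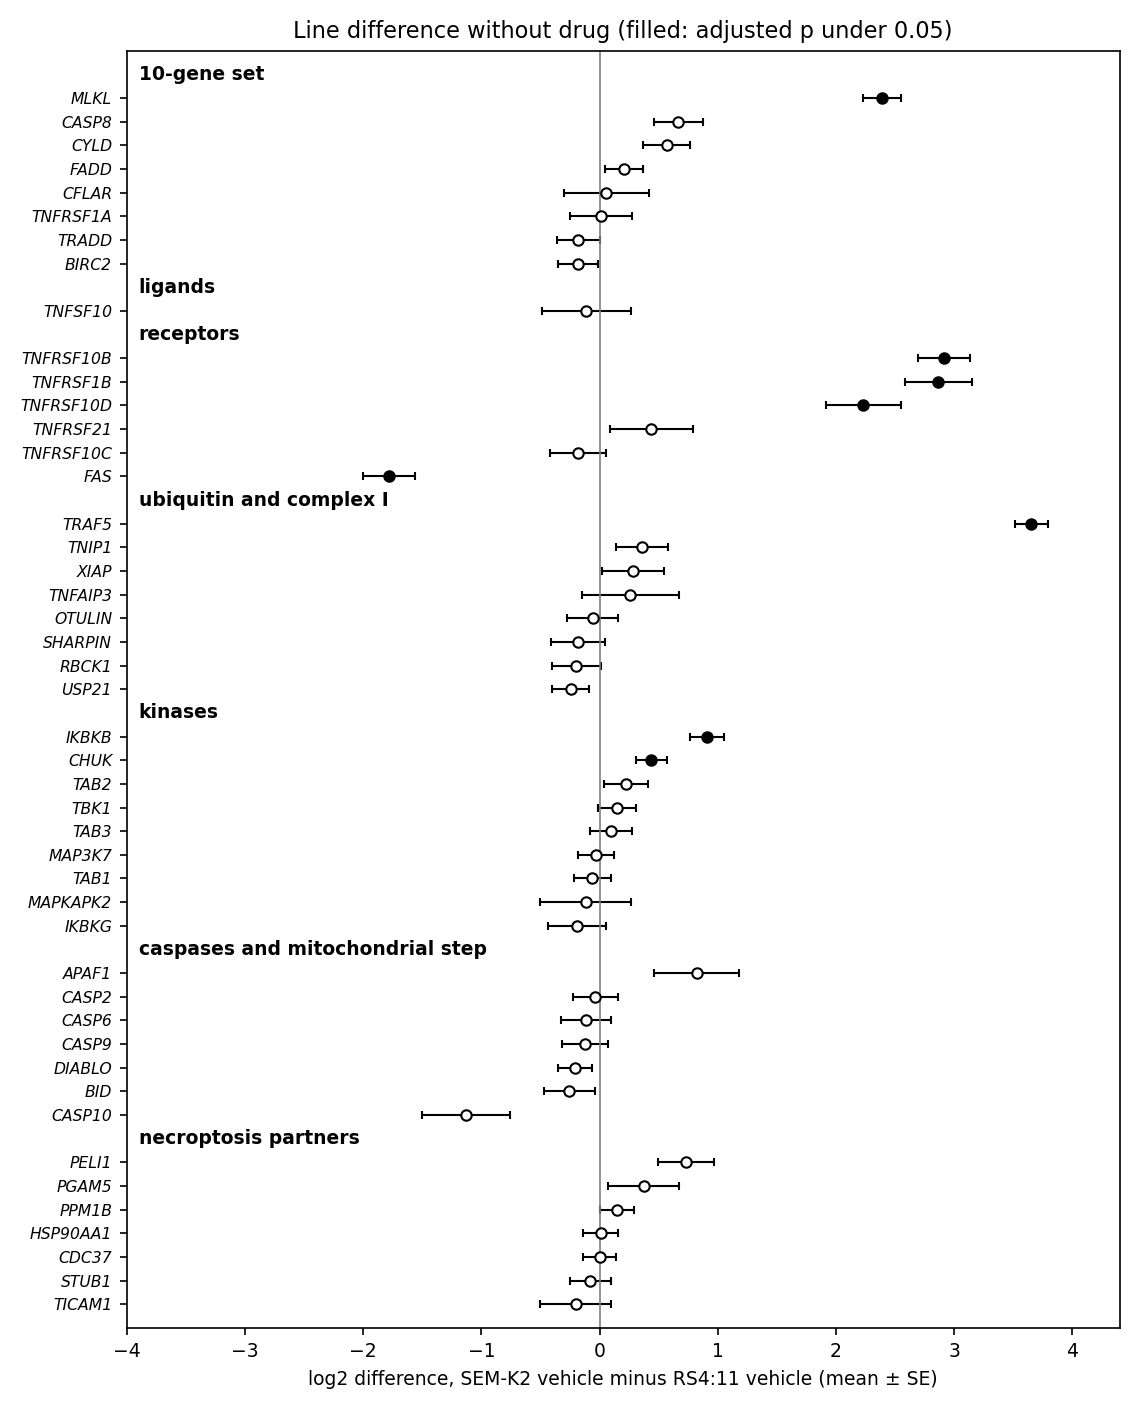
Log2 difference between the vehicle arrays of SEM-K2 and RS4:11 (horizontal axis, mean ± SE, n = 2 arrays a group) for 8 genes of the set and 38 other pathway genes, grouped by role; filled points have an adjusted p under 0.05. MLKL at 2.39 is the filled point of the first group, and TRAF5 at 3.65 and FAS at -1.78 lie farthest to either side in the list.

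Among the 6 tested receptors 3 were called higher and 1 lower in SEM-K2 without drug, where 19.6% of all genes tested were called. By direction alone 4 of the 6 read higher in SEM-K2. With 6 genes these counts are no result about receptors. TNFRSF10B, a receptor for TRAIL, read 8.23 and 8.36 in SEM-K2 and 5.19 and 5.56 in RS4:11 (2.91 ± 0.22, adjusted p = 1.15e-05). TNFRSF1B, the second receptor for tumour necrosis factor, which has no death domain, read 7.70 and 6.70 against 4.45 and 4.23 (2.87 ± 0.28, adjusted p = 7.32e-05). TNFRSF10D, a decoy receptor for TRAIL, was under the floor on both RS4:11 vehicle arrays (3.74 and 3.24) and at least 3.30-fold higher in SEM-K2 (adjusted p = 8.57e-04). FAS went the other way: it was under the floor on all 6 SEM-K2 arrays and at least 2.60-fold higher in RS4:11 (adjusted p = 3.34e-04). These sizes are those of the brightest probe set: with a gene's probe sets averaged, TNFRSF10B differed by 1.32 and TNFRSF10D by 1.12, both still called, and FAS did not pass the filter.

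TRAF5, an adaptor of the first complex, was under the floor on both RS4:11 vehicle arrays (2.87 and 2.91) and read 6.56 and 6.52 in SEM-K2 vehicle arrays, at least 5.82-fold higher (adjusted p = 8.45e-08). IKBKB, the kinase that releases NF-kappaB, was higher in SEM-K2 by 0.91 ± 0.15 (adjusted p = 0.00186). With probe sets averaged TRAF5 differed by 1.82 and IKBKB by 0.54 (adjusted p = 0.0455), both still called. The remaining call, CHUK (0.44 ± 0.13, adjusted p = 0.0461), was lost when any 1 of the 12 arrays was left out. With the replicate block 10 of 38 (26.3%) were called, beside 26.8% of all genes.

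With drug, 1 of the 38 was called at 3xEC50 in SEM-K2 (0.824% of all genes called) and 1 in the average (0.833%), both times TNFAIP3, the ubiquitin-editing enzyme A20 that opposes NF-kappaB and, like CYLD, acts on RIPK1 chains. It read 6.49 and 4.88 in SEM-K2 vehicle arrays, 8.06 and 7.65 at EC50 and 8.49 and 8.54 at 3xEC50; in RS4:11 it read 5.40 and 5.45, 6.64 and 6.87, and 6.85 and 6.72. Treated and vehicle arrays did not overlap in either line. It rose by 2.83 ± 0.41 (7.13-fold, adjusted p = 0.0167) at 3xEC50 in SEM-K2 and by 1.92 ± 0.25 (adjusted p = 0.0117) on average. The 3xEC50 difference was 2.03 without SEM-K2 vehicle replicate 2 and 3.64 without vehicle replicate 1, and the average 1.52 and 2.32, all called. Without SEM-K2 3xEC50 replicate 2 the former was 2.81 (adjusted p = 0.126), and without RS4:11 vehicle replicate 2 the average was 1.94 (adjusted p = 0.0704). In the contrasts with no call TNFAIP3 had the smallest p of the list: 2.17 at EC50 in SEM-K2 (adjusted p = 0.130), and 1.36 and 1.33 at 3xEC50 and EC50 in RS4:11 (adjusted p = 0.702 and 0.971).

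Next by p in those contrasts came TNFRSF21, a death domain receptor, with -0.87 at EC50 in SEM-K2 (adjusted p = 0.831) and -0.88 at 3xEC50 in RS4:11 (adjusted p = 0.914), and OTULIN, a deubiquitinase of linear chains, with 0.41 at EC50 in RS4:11. With the replicate block TNIP1, the partner of TNFAIP3, was called as well, at 3xEC50 in SEM-K2 (0.73, adjusted p = 0.0445; 2.08% of all genes called under that block) and in the average (0.45, adjusted p = 0.0330); it was named after its values were seen. Median differences of the 38 genes were 0.16 at 3xEC50 and 0.07 at EC50 in SEM-K2, and -0.01 and 0.01 in RS4:11.

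For each of the 8 genes the tested gene with the most similar profile was found by Pearson's r over 12 arrays after each line's mean was subtracted. All 12 points share replicate sets, so the values describe these arrays only. Each is the highest r among all genes tested, and shared control was not tested. The next genes could be nearly equal, as for CYLD, whose 3 highest values were 0.960, 0.959 and 0.957. CYLD was closest to TEC (r = 0.96), TNFRSF1A to BHLHE40 (0.96), CFLAR to IGLL1 (0.97), CASP8 to ZNF217 (0.98), FADD to GPKOW (0.98), TRADD to PIN4 (0.93) and BIRC2 to SETDB2 (0.93). MLKL, which varied little within a line, reached 0.87 with AFG2B.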

How the data were processed

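Deposited log2 values of 12 arrays were used. Per the submitters' processing notes they were made with GCRMA, version not given, which corrects background by probe sequence and normalises arrays by quantiles. The notes do not state the scale, and the authors' values were read as log2 from their range (0.64 to 16.2). Scanner files were not used here. Precision is limited by how many arrays there are. Among 54675 probe sets, 41097 had 1 gene symbol in the platform annotation, 1801 several and 11777 were not listed; 41037 matched RefSeq GRCh38.p14 by Entrez identifier, the source of positions and promoters. Of the 10 genes 8 had promoter windows.

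Genes above 4 on at least 2 arrays entered a linear model in limma 3.58.1 (lmFit, then eBayes; R 4.3.3, tables handled by data.table at version 1.17.8), with 6 group means, 6 residual and 3.27 prior degrees of freedom. P-values were adjusted by Benjamini-Hochberg over all 10561 genes within a contrast and called under 0.05. The code was tested on simulated data. Errors are SEs of the fit and intervals are 95% intervals. A fold against a group with a mean under 4 was counted from 4 and given as a lower bound.

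The labels number the replicates, and deviations from group means of arrays with the same number correlated over genes in all 15 pairs of groups (r from 0.35 to 0.60 within a line, 0.19 to 0.40 between lines), so the numbers pair the samples; blocked values are given where they change a call. All 10 genes are described; of the pathway list, called genes were named, up to 6 a contrast by p, and where none was called the 2 with the smallest p in each drug contrast. The genes, lists and tests were chosen with earlier results of these data known.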

Additional observations from a re-analysis of the deposited data

How the results depend on the processing

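For the 8 tested genes, the 10 comparisons were recomputed with arrays centred, with trend and robust variance, and with the filter at 5 or absent. They were also run with probe sets averaged or without _x_at probe sets, with replicate blocks and without each array in turn. Fits of the compared groups alone were run too, except for the average and the differences in response between the lines. The baseline call of MLKL, the 1 call in the set, held under all of them. The count called at baseline, 1 as reported, was 2 with trend and robust variance (19.9% of all genes called) and 2 with the filter at 5 (20.6%). With the replicate number as a block it was 3. The block within each line also gave 3, but for line differences at replicate 1 and not those of the vehicle means. Leaving out 1 array gave 1 to 2, with 13.4% to 19.9% of all genes called. At 3xEC50 in SEM-K2 the count, 0 as reported, was 2 with the block within each line. Averaged over lines and doses it was 1 with the replicate block, 3 with the block within each line, and 0 to 1 without 1 array. Both blocks leave fewer residual degrees of freedom and remove spread shared by same-numbered arrays. All other counts stayed at 0 under every alternative run. TNFAIP3 lost its call at 3xEC50 in SEM-K2 (adjusted p = 0.0936) and on average (adjusted p = 0.0682) with no filter, where more genes are tested, and at 3xEC50 in SEM-K2 with the compared groups alone (adjusted p = 0.567), where fewer arrays estimate the spread. With 2 arrays a group the SE of a difference was 0.16 to 0.36 for these 8 genes, and signal close to 4 limits RIPK3 and MLKL in RS4:11.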
